A study of Mus musculus with 123 samples.

Results

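The genes described here are 35 genes of glucose breakdown, glycogen metabolism and pyruvate handling, measured as messenger RNA in mouse cerebral cortex around 6 h of sleep deprivation. They were taken by name from a written list, and all 35 were found among the 13842 genes of the RNA table. By role they are 15 glycolytic enzymes, 2 enzymes that set fructose 2,6-bisphosphate, 9 genes of lactate and pyruvate conversion, 3 transporters and 6 glycogen genes. The mice were C57BL/6J males, an inbred line with no transgene here, aged 11 to 12 weeks and kept under 12 h of light and 12 h of dark. Undisturbed controls were taken at zeitgeber time (ZT, hours after light onset) 0 (8 animals, 4 labelled T0 and 4 labelled T24), 3 (3 animals), 6, 12 and 18 (5 animals each). Deprived mice were kept awake by gentle handling from light onset, hour 24 of the study's clock, to hour 30, and 12 groups of 3 are named by that clock. T27 and T30 were taken after 3 h and 6 h of deprivation, T36 and T42 at 6 h and 12 h after its end, and T48, T54, T60, T66, T72, T78, T192 and T198 later. The labels of the T36 animals place them during deprivation, whereas the protocol ended it 6 h earlier, and the protocol's time is used here. Each deprived group was set against controls of the same time of day, which T30, T54, T78 and T198 (ZT6), T36 and T60 (ZT12), T42 and T66 (ZT18), and T48, T72 and T192 (ZT0) share. Open chromatin was measured by ATAC-seq, in which a transposase tags accessible DNA, on tissue of the same animals.

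Glycolysis splits glucose to pyruvate, and its pace is set mainly at phosphofructokinase, which fructose 2,6-bisphosphate activates strongly. In brain tissue, astrocytes hold nearly all of the glycogen, and lactate moves between cells through monocarboxylate transporters. Pyruvate either becomes lactate through lactate dehydrogenase or enters the mitochondria, where the pyruvate dehydrogenase complex turns it into acetyl-CoA and pyruvate dehydrogenase kinases switch that complex off. Waking raises the brain's demand for glucose, and brain glycogen has long been discussed as an energy store that is drawn on in waking.

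Levels are given as deposited, in log2 units of a depth-normalised level with an offset of 0.5, and they are not compared between genes because no source used here says whether they were scaled by gene length. A gene was called when its p-value in limma, adjusted over all 13842 genes by the Benjamini-Hochberg method, was below 0.05. The cortical label was matched by the neuronal and glial markers, for example Slc17a7 at 9.42 to 9.72 and Aqp4 at 5.16 to 5.71 over all 62 libraries. Tissue was bulk cortex, so fewer cells of a type and less RNA per cell cannot be told apart. Between the ZT0 controls labelled T0 and T24, 0 of 35 members and 0% of all genes were called, with 1 member at an unadjusted p under 0.05 against 4.49% of genes. Some of the enzymes, Gapdh, Ldha, Aldoa, Pgk1 and Tpi1 among them, have near-identical pseudogene copies in the mouse genome. Their levels are uncertain to the extent that reads were shared between copies.

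Across the time course, 20 calls fell on 11 members, and the other 24 members were called at none of the 12 times. At T27, 6 members were higher (17.1%, beside 8.21% of all genes called higher) and 0 were lower (7.37% of all genes). In limma, 7 of 35 had an unadjusted p under 0.05 at T27, beside 28.2% of all genes, 11 at T30, beside 40.8%, and 10 at T36, beside 25.5%. At T30, 5 were higher (14.3%, beside 16% of all genes) and 5 were lower (14.3%, beside 15.6%). At T36, 2 were higher (5.71%, beside 7.46% of all genes) and 1 was lower (2.86%, beside 4.46%). These shares lay near the background at T30 and T36, and at T27 the share of members called higher was above it while that called lower was below. The members were chosen with earlier results of these data known, so the T27 share is descriptive only. With 1 library of T27 or ZT3 left out, 4 to 5 members were called at T27. The typical member moved less than the typical gene: the median absolute log2 change was 0.04 among members and 0.09 among all genes at T27, and 0.06 and 0.11 at T30. The median standard error (SE) was also smaller for members, 0.06 against 0.08 at T27. Changes above 0.3 on the log2 scale were called in 3 members, Pfkfb3, Ppp1r3c and Pdk4.

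**Figure D1:**
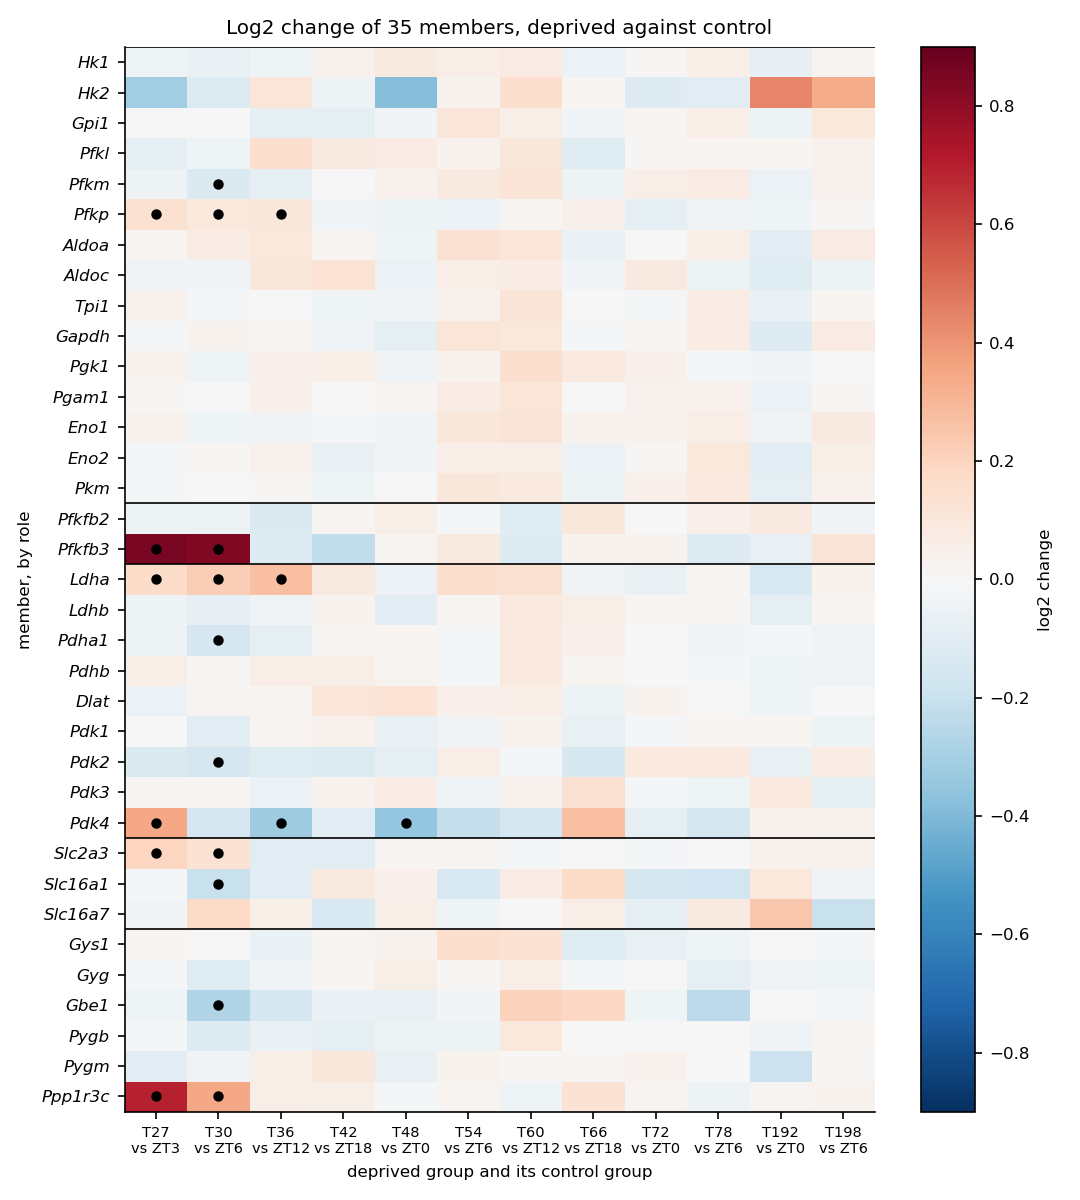
Log2 change of each of the 35 members (rows, grouped by role between black lines) in the 12 deprived groups against controls of the same time of day (columns). Colour gives the change, black dots mark calls at an adjusted p below 0.05, and the dots lie at T27, T30 and T36 apart from 1 for Pdk4 at T48.

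Pfkfb3 encodes 6-phosphofructo-2-kinase/fructose-2,6-bisphosphatase 3, the isoform with a strong bias toward making fructose 2,6-bisphosphate, and it showed the largest rise among the members. Its level in the T27 animals was 5.03, 5.21 and 5.22, against 4.22, 4.32 and 4.36 in the ZT3 controls. In the T30 animals it was 5.00, 5.07 and 5.11, against 3.99, 4.12, 4.19, 4.35 and 4.52 at ZT6. At both times all deprived animals lay above all controls. The rise was 1.81-fold at T27 (log2 change 0.86, SE 0.10, limma adjusted p = 1.13e-07) and 1.78-fold at T30 (log2 change 0.83, SE 0.09, limma adjusted p = 3.67e-09), and neither call was lost in any alternative or without any single library. By T36 the level was 4.26, 4.26 and 4.29, below all 5 ZT12 controls (4.34 to 4.49), though the change of -0.11 (SE 0.09) was not called (limma adjusted p = 0.479). The deprivation effect itself was smaller at T36 than at T30 by 0.95 on the log2 scale (SE 0.13, limma adjusted p = 1.62e-06). At T42 the animals lay at 4.45, 4.64 and 4.76 against 4.71 to 5.05 at ZT18, with 1 animal inside the control range (log2 change -0.22, SE 0.09, limma adjusted p = 0.298).

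Pfkfb2, the isoform best known from heart, was called at none of the 12 times. Its log2 change was -0.05 (SE 0.07) at T27 and -0.05 (SE 0.06) at T30. It reached -0.13 (SE 0.06) at T36, where the call appeared only when the library T36S2 was left out (log2 change -0.22, limma adjusted p = 0.035).

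The 250 bases before the downstream of 2 listed starts of Pfkfb3, the single start of Ppp1r3c and the upstream of 2 listed starts of Ldha are shown because these members had rises at T30 that held in every alternative and the windows hold an E-box. For Pfkfb3 and Ldha the start was chosen after the matches were seen. They come from RefSeq, assembly GRCm38.p6, and are printed 5′ to 3′ on the strand of the gene, at chr2:11502091-11502340 (minus strand), chr19:36736605-36736854 (minus strand) and chr7:46845554-46845803 (plus strand). Capitals mark the letters CACGTG (an E-box, read by clock and MYC family factors), ACGTG (the core of the hypoxia response element, contained in CACGTG), TGACGTCA (the cyclic AMP response element) and TGACG (the first part of it), each searched on both strands.
Pfkfb3: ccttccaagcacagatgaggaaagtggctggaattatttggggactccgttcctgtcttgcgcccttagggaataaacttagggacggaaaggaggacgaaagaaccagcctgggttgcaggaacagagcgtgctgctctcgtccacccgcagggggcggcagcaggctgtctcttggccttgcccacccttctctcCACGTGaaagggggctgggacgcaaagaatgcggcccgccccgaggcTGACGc
Ppp1r3c: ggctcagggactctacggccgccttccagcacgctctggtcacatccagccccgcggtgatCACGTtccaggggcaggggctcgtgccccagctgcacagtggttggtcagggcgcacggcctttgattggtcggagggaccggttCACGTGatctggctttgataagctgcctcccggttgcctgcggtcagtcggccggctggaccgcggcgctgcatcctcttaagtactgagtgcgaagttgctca
Ldha: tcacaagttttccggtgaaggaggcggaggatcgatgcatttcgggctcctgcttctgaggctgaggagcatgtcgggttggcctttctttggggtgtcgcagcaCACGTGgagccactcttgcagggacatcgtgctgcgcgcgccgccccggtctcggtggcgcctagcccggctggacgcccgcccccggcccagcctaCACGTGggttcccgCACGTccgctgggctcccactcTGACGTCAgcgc

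The printed windows hold CACGTG, which Ldha carries at 2 places. The windows at the other listed starts of Pfkfb3 and Ldha hold no CACGTG, but both hold TGACG, and that of Pfkfb3 holds ACGTG. Promoter windows were found for 33 of the 35 members, with 49 start sites in all, and none was found for Slc2a3 and Slc16a7. CACGTG stood in 7 of the 49 windows (14.3%), beside 6.0% of the 32851 windows of all genes. ACGTG stood in 20 of the 49 (40.8%), in 16 of the 33 genes, beside 16.6% of all windows. TGACG stood in 9 of the 49 (18.4%), beside 17.8%, and the full TGACGTCA in 1, that of Ldha, beside 1.5%. Windows of 1 gene can overlap, and a match describes letters and no binding. Each of these strings of letters holds CG, and the shares were not adjusted for the base composition of the windows.

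Few of the 15 glycolytic enzymes were called at single times. At T27 only Pfkp was called (higher), at T30 Pfkp (higher) and Pfkm (lower), and at T36 only Pfkp (higher). Pfkp and Pfkm encode the platelet and muscle forms of phosphofructokinase, and both are expressed in brain. Pfkp stood at 7.85, 7.90 and 7.93 at T27 against 7.72, 7.75 and 7.80 at ZT3 (log2 change 0.14, SE 0.04, limma adjusted p = 0.00638). Its changes against controls of the same time of day were 0.09 (SE 0.03, limma adjusted p = 0.0345) at T30, where animals of both groups overlapped, and 0.10 (SE 0.03, limma adjusted p = 0.035) at T36. Pfkp calls were weak: the one at T27 was lost without ZT3 library T3N4 (limma adjusted p = 0.0522). The T30 call was lost without any 1 of 5 libraries (T6N2, T6N3, J76N2, T30S1 and T30S3, limma adjusted p up to 0.335, with a change of 0.05 without T30S3) and the T36 call without any 1 of 5 (T12N1, T12N2, T12N4, T36S1 and T36S2, limma adjusted p up to 0.159). In the fit of the 2 groups alone the adjusted p was 0.0793, 0.158 and 0.0916 at these times, and with centred libraries the T30 call was lost as well (0.0658).

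Pfkm stood at 7.93, 7.96 and 8.05 at T30, below all ZT6 controls (8.06 to 8.20). The change was -0.13 (SE 0.04, limma adjusted p = 0.00528) and was lost without the library T30S1 (limma adjusted p = 0.0562) and in the fit of the 2 groups alone (0.115). The other phosphofructokinase gene, Pfkl, known from liver, had a log2 change of 0.15 (SE 0.06) at T36 and was not called (limma adjusted p = 0.0741), but was called higher with controls of batch 1 alone (0.19, 0.0457) and in the fit of the 2 groups alone (0.19, 0.0354).

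Hexokinases trap glucose in the cell, Hk1 as the main form of neurons and Hk2 as an inducible form. Hk2 varied more between animals than the other enzymes. It lay at 1.32, 1.63 and 1.67 at T27 and 1.59, 1.86 and 2.11 at ZT3, and the groups overlapped (log2 change -0.31, SE 0.16, limma adjusted p = 0.177). At T48 it lay at 1.04, 1.25 and 1.66, with ZT0 controls from 1.48 to 2.09 (log2 change -0.38, SE 0.14, limma adjusted p = 0.154). At T192 it lay at 2.06, 2.19 and 2.27 (log2 change 0.44, SE 0.14, limma adjusted p = 0.461) and at T198 at 1.96, 2.04 and 2.05, above all ZT6 controls (log2 change 0.34, SE 0.15, limma adjusted p = 0.458). None of these single comparisons was called. All T192 and T198 animals belonged to batch 2, as did 4 of the 8 ZT0 controls and 2 of the 5 ZT6 controls.

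The remaining 12 enzymes are Hk1, glucose phosphate isomerase Gpi1, Pfkl, the aldolases Aldoa and Aldoc, triose phosphate isomerase Tpi1, Gapdh, the phosphoglycerate enzymes Pgk1 and Pgam1, the enolases Eno1 and Eno2, and pyruvate kinase Pkm. Their log2 changes in all 12 comparisons lay between -0.12 and 0.15. The 95% intervals of these changes, taken one gene and one comparison at a time, ran from 0.854-fold to 1.20-fold at their outer bounds. These bounds mark the size of change that the data leave possible for a single enzyme. At T60, 30 h after the end of deprivation, all 15 enzymes were above their ZT12 controls by 0.02 to 0.15, with a median of 0.10, and none was called. The median over all genes at T60 was 0.01, and all 3 T60 animals belonged to batch 2.

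**Figure D2:**
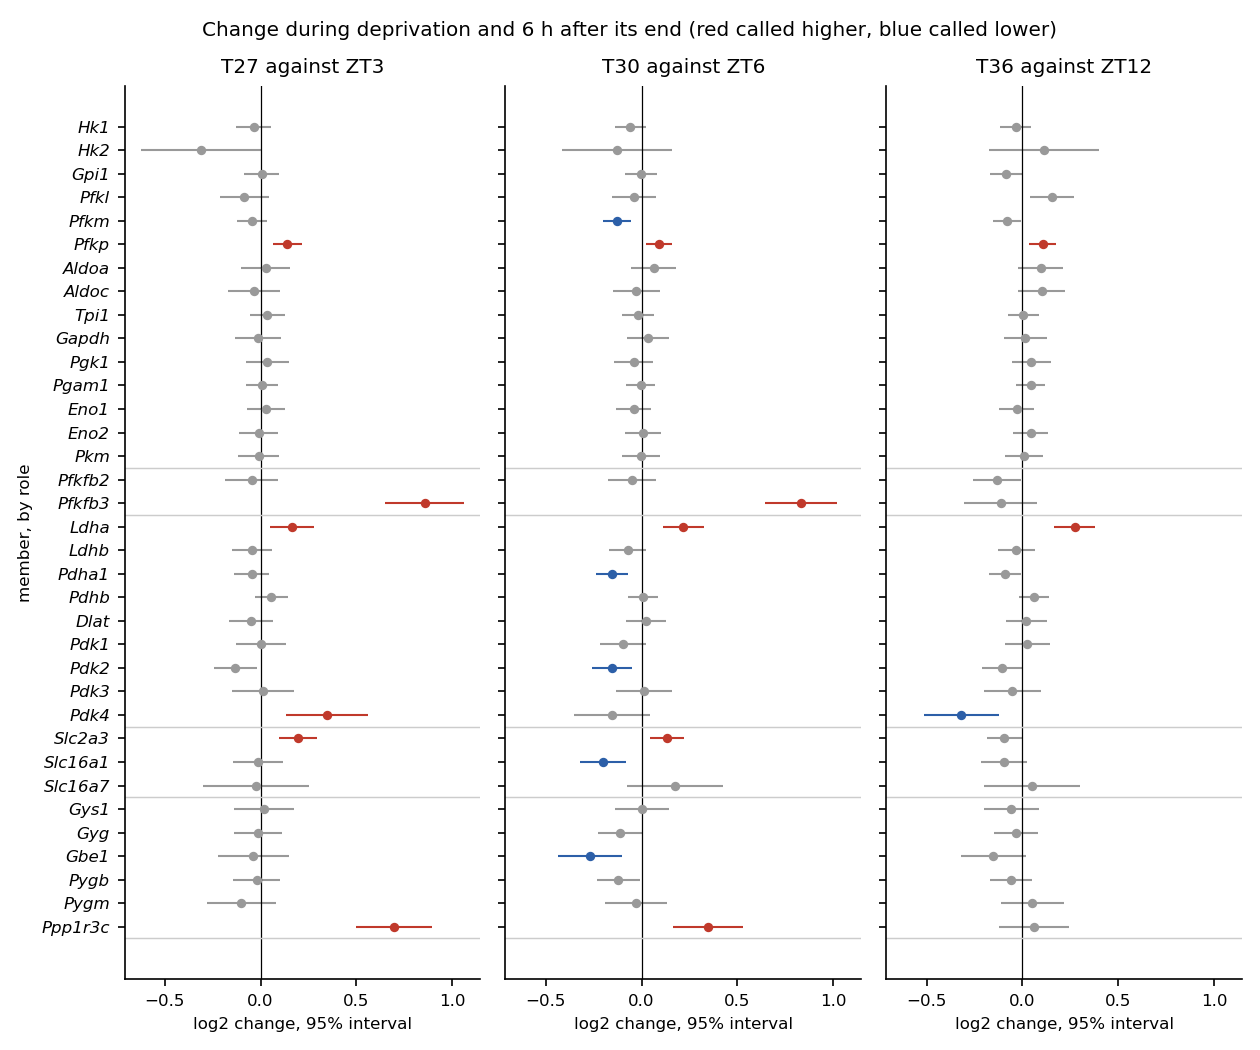
Log2 change of the 35 members with 95% intervals at T27, T30 and T36, on 1 shared axis, with roles separated by grey lines. Red points were called higher and blue points lower, and in the top block, of glycolytic enzymes, Hk2 has the lowest value at T27 (-0.31, not called), while Pfkfb3 and Ppp1r3c stand at 0.86 and 0.69.

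Among the 9 lactate and pyruvate genes, Ldha was higher at T27, T30 and T36, Pdk4 was higher at T27 and lower at T36 and T48, and Pdha1 and Pdk2 were lower at T30. Ldha encodes the lactate dehydrogenase subunit that favours lactate formation, and Ldhb the subunit that favours pyruvate. Ldha stood at 8.07, 8.08 and 8.27 at T27 against 7.92, 7.98 and 8.03 at ZT3. It stood at 8.14, 8.15 and 8.20 at T30 against 7.88 to 8.01 at ZT6, and at 8.06, 8.07 and 8.26 at T36 against 7.77 to 7.95 at ZT12. The deprived animals lay above all their controls at these 3 times. Its change was 0.16 at T27 (SE 0.06, limma adjusted p = 0.0457), 0.22 at T30 (SE 0.05, limma adjusted p = 0.00132) and 0.27 at T36 (SE 0.05, limma adjusted p = 0.000336), or 1.12-fold, 1.16-fold and 1.21-fold. The calls at T30 and T36 held in every alternative and without each library. The T27 call was lost with the libraries centred on their medians (limma adjusted p = 0.0568), with no intensity trend (0.0531), in the fit of the 2 groups alone (0.128), and without T3N2 (0.102), T3N4 (0.189) or T27S3 (0.32), where the change was 0.10. At T42 the change was 0.08 (SE 0.05, limma adjusted p = 0.587). The difference between the Ldha effects at T36 and T30 was not called (0.05, SE 0.07, limma adjusted p = 0.713). Ldhb was called at none of the 12 times.

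Pdk4 encodes an inducible pyruvate dehydrogenase kinase that is known to follow fasting and glucocorticoids. Its level at T27 was 3.22, 3.38 and 3.42 against 2.88, 2.98 and 3.12 at ZT3, with no overlap (log2 change 0.35, SE 0.11, limma adjusted p = 0.0202). At T30 it was 2.68, 2.82 and 2.96, inside the range of the ZT6 controls of 2.76, 2.88, 3.01, 3.08 and 3.11 apart from the lowest animal (log2 change -0.15, SE 0.10, limma adjusted p = 0.242). The step between the T27 and T30 effects, -0.50 (SE 0.14), was not called (limma adjusted p = 0.323). At T36 the animals stood at 2.56, 2.56 and 2.60, below all ZT12 controls of 2.79 to 2.97 (log2 change -0.32, SE 0.10, limma adjusted p = 0.024). At T48 they stood at 2.70, 2.78 and 2.91 against ZT0 controls from 2.88 to 3.44 with a median of 3.10, with 1 animal inside the control range (log2 change -0.35, SE 0.09, limma adjusted p = 0.0431). Each Pdk4 call rested on few animals. The T27 call was lost without any 1 of T3N2, T3N3, T27S2 and T27S5 (limma adjusted p from 0.0571 to 0.105), the T36 call without T36S1, T36S2 or T36S4 (0.0514 to 0.0917), and the T48 call without any 1 of 7 libraries (T0N2, T0N3, T0N5, J70N2, T48S1, T48S3 and T48S4, up to 0.212). With controls of batch 1 alone the adjusted p was 0.0926 at T36 and 0.0572 at T48, and in the fit of the 2 groups alone 0.248 at T48.

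**Figure D3:**
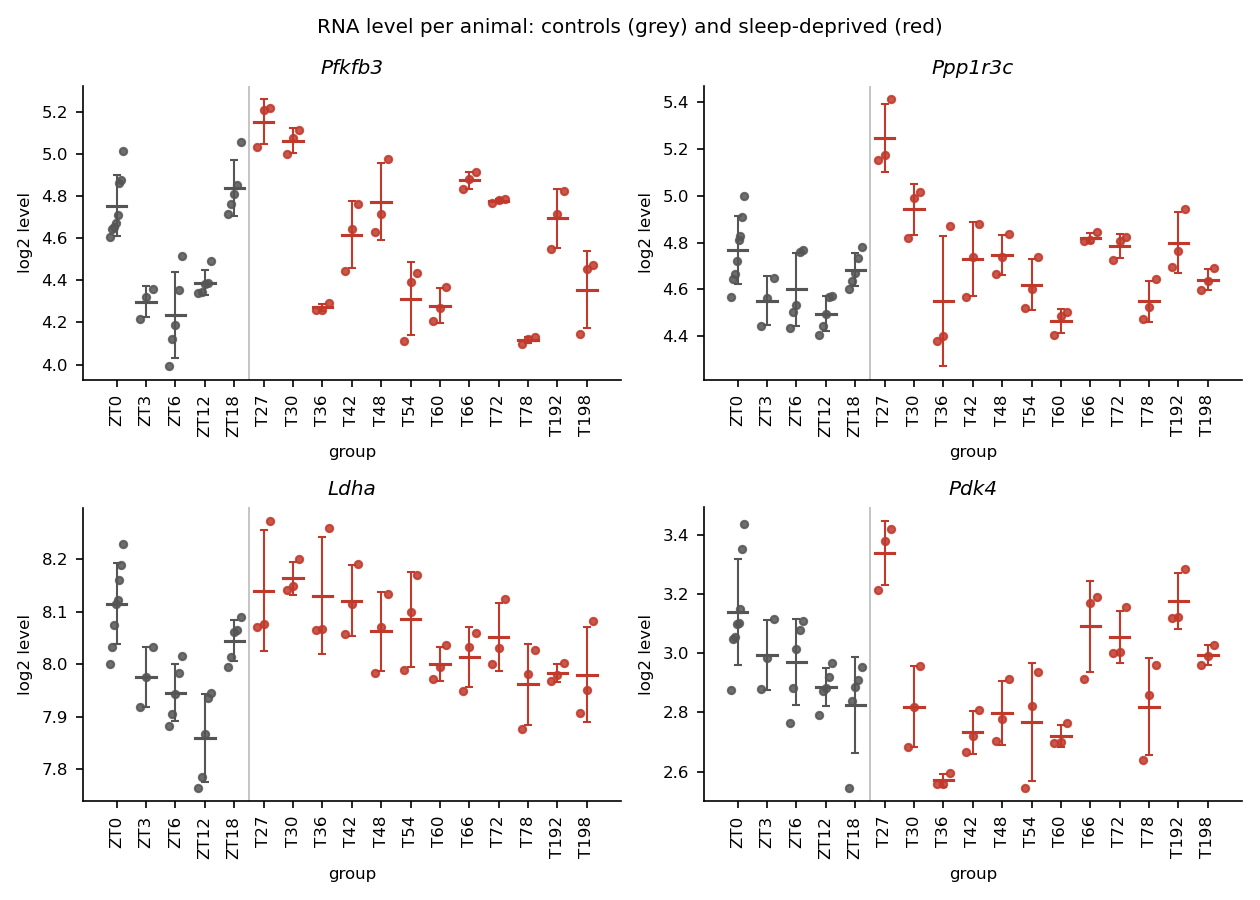
RNA level of Pfkfb3, Ppp1r3c, Ldha and Pdk4 in each animal (points), with the mean (bar) and SD (whisker), in the 5 control groups (grey) and the 12 deprived groups (red), in log2 units of the deposited level. Pfkfb3 and Ppp1r3c are above their controls of the same time of day at T27 and T30, and at T30 both overlap their ZT0 controls. Ldha is still above its ZT12 controls at T36, and Pdk4 is high at T27 and at 2.56 to 2.60 at T36.

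Pdha1 encodes the catalytic alpha subunit of pyruvate dehydrogenase. At T30 it was 7.25, 7.26 and 7.27, below all ZT6 controls (7.33 to 7.47), a change of -0.15 (SE 0.04, limma adjusted p = 0.00379) that held without each library. Pdk2, the most widely expressed of the kinases, was 6.01, 6.03 and 6.07 at T30 against 6.14 to 6.28 (log2 change -0.15, SE 0.05, limma adjusted p = 0.0191). That call was lost without T6N3, T30S1 or T30S3 (limma adjusted p up to 0.0766). The beta subunit Pdhb, the acetyltransferase Dlat and the kinases Pdk1 and Pdk3 were called at none of the 12 times. At T30 their log2 changes were 0.01, 0.02, -0.10 and 0.01.

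Of the 3 transporters, Slc2a3 (GLUT3, the neuronal glucose transporter) rose at T27 and T30 and Slc16a1 (MCT1, a lactate transporter of oligodendrocytes and endothelium) fell at T30. Slc2a3 stood at 6.44, 6.46 and 6.49 at T27 against 6.25, 6.26 and 6.30 at ZT3. The groups did not overlap (log2 change 0.19, SE 0.05, limma adjusted p = 0.00434), and the call held in every alternative and without each library. At T30 it stood at 6.36, 6.38 and 6.57 against 6.26 to 6.37, with overlap (log2 change 0.13, SE 0.05, limma adjusted p = 0.0208), a call lost in the fit of the 2 groups alone (limma adjusted p = 0.158), without T6N2 (0.0578) and without T30S3 (0.335), where the change was 0.07. The Slc2a3 effect at T36 was smaller than at T30 by 0.23 (SE 0.06, limma adjusted p = 0.0113), a difference lost without T30S3 (0.0998) or T36S2 (0.0685). At T36 itself Slc2a3 was called lower only without T36S1 (log2 change -0.16, limma adjusted p = 0.0363). Slc16a1 stood at 3.95, 3.97 and 4.01 at T30 against 4.10 to 4.28 at ZT6 (log2 change -0.20, SE 0.06, limma adjusted p = 0.00725). In the fit of those 2 groups alone its adjusted p was 0.0712. Slc16a7 (MCT2, the neuronal lactate transporter) changed by 0.17 at T30 and was called at none of the 12 times.

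Ppp1r3c led the glycogen genes. It encodes PTG, which brings protein phosphatase 1 to glycogen and thereby turns glycogen synthase on. Its level was 5.15, 5.17 and 5.41 at T27 against 4.44, 4.56 and 4.65 at ZT3. At T30 it was 4.82, 4.99 and 5.02 against 4.44, 4.50, 4.53, 4.76 and 4.77 at ZT6. All deprived animals lay above all controls at both times, and the rise was 1.62-fold at T27 (log2 change 0.69, SE 0.10, limma adjusted p = 2.11e-06) and 1.27-fold at T30 (log2 change 0.35, SE 0.09, limma adjusted p = 0.0025). Both calls held in every alternative and without each library. The T30 effect was smaller than the T27 effect by 0.35 (SE 0.13), which was not called (limma adjusted p = 0.489). At T36 the animals stood at 4.38, 4.40 and 4.87, 1 of them above all ZT12 controls (4.40 to 4.57), and the change of 0.06 (SE 0.09) was not called (limma adjusted p = 0.735).

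Gbe1, the glycogen branching enzyme, was the other glycogen gene that changed. At T30 it was 2.97, 3.02 and 3.06, below all ZT6 controls (3.09 to 3.44), a change of -0.27 (SE 0.08, limma adjusted p = 0.0118) that was lost without T6N2 (limma adjusted p = 0.053) or T30S4 (0.0569). Glycogen synthase Gys1, glycogenin Gyg, which primes glycogen, and the phosphorylases Pygb (brain form) and Pygm (muscle form, also in astrocytes), which break it down, were called at none of the 12 times. At T27 their log2 changes were 0.02, -0.01, -0.02 and -0.10. Pygb was called lower at T30 when the library T6N2 was left out (log2 change -0.16, limma adjusted p = 0.0339), and also with libraries centred on their medians (-0.14, 0.0491).

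Markers of other cell types also moved at these times. At T27, 4 of the 7 measured choroid plexus, meninges and blood markers were lower (Ttr, at a log2 change of -3.22, Kl, Slc6a13 and Slc13a4), and the summed level of the list ran from 8.19 to 9.19 in the ZT3 controls and from 8.19 to 8.35 in the T27 animals. At T30, 3 of 8 oligodendrocyte markers, Mog, Cnp and Opalin, were lower (summed level 10.8 to 11.3, against 11.0 to 11.4 at ZT6), as were 2 of 8 endothelial and mural markers (Slco1a4 and Pdgfrb, summed level 7.79 to 7.88, against 7.91 to 8.06). The same 2 genes were lower at T27 (summed level 7.80 to 7.87, against 7.92 to 8.06 at ZT3). Of 7 microglia markers 3 were lower and 1 higher at T30 (summed level 7.55 to 7.60, against 7.62 to 7.69). Of 10 astrocyte markers, 1 was higher at T27, and at T30 1 was higher and 1 lower. Excitatory neuron markers had 1 higher and 1 lower of 7 at T27, inhibitory neuron markers 1 higher of 6 at T30, and oligodendrocyte precursor markers 1 higher of 5 at T27 and 2 at T30. At T27 1 of 7 microglia markers was lower, and at T30 1 of 7 excitatory neuron markers was higher. At T36 the astrocyte marker Gfap (log2 change 0.55), Vip, C1qa, Tek, Acta2 and Acta1, the 1 skeletal muscle marker of 5 that was measured, were higher and the oligodendrocyte marker Opalin was lower (-0.43). At T48, where Pdk4 was lower, the astrocyte markers Aldh1l1 (-0.31) and Gja1 (-0.28) and the neuronal Camk2a (-0.17) were lower too. The shares of all genes called at each time, given with the members' counts, are the background of these counts. The part of these shifts in the changes of the members, Pfkfb3, Slc2a3, Slc16a1, Gbe1, Ldha, Pdk4 and Ppp1r3c among them, was not tested. Pfkfb3, Ppp1r3c and Slc2a3 kept their T27 calls without each ZT3 library in turn. Such a fit leaves out 1 control at a time and does not test the part of the marker shifts.

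In undisturbed controls 12 of 35 members varied over the 5 times of day (34.3%), beside 40.7% of all genes. They were Pfkm, Pfkp, Pfkfb2, Pfkfb3, Ldha, Pdha1, Pdk2, Pdk4, Slc2a3, Slc16a1, Gbe1 and Ppp1r3c. The weakest of these calls were those of Pfkm, lost without any 1 of 10 of the 26 control libraries (limma adjusted p up to 0.0826), and Pdha1, lost without any 1 of 8 (up to 0.0993). Gbe1 was lost without T3N4, T6N2, T6N3 or T12N1 (up to 0.0895), Pfkfb2 without T12N1, T18N3 or T18N7 (up to 0.0618) and Pdk2 without T18N3 (0.0501). With batch 1 controls alone the calls of Pfkm (limma adjusted p = 0.496), Pfkfb2 (0.113), Ppp1r3c (0.0888) and Pdha1 (0.0871) were lost. With no intensity trend that of Pfkm was lost (0.0528). Over the 12 deprivation contrasts together, an F-test called 13 of 35 members (37.1%), beside 36.9% of all genes. These 13 comprised the 11 members called at single times and also Hk1 (limma adjusted p = 0.0271) and Hk2 (0.021). Hk1 was lost without T30S1, T30S4, T48S3, T48S4 or T60S4 (up to 0.0644) and Hk2 without T48S3 or the T192 library J70S3 (up to 0.0567). Of the 11, Pdha1 (limma adjusted p = 0.0284) was lost without T30S1, T30S3, T30S4, T36S2 or T60S4 (up to 0.0707). Gbe1 (0.0381) kept its call in only 50 of 62 fits without 1 library (up to 0.0722).

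Pfkfb3 had the widest rhythm in controls, with a range of 0.60 between its fitted low at ZT6 and high at ZT18 (limma adjusted p = 4.79e-09). Its ZT18 controls lay at 4.71, 4.76, 4.81, 4.85 and 5.05, and its ZT0 controls between 4.61 and 5.01 with a median of 4.69. Both groups were above all ZT3, ZT6 and ZT12 controls, which ran from 3.99 to 4.52. Slc16a1 followed with a range of 0.46 and the opposite night level: 3.61 to 3.81 at ZT12 and 3.79 to 3.91 at ZT18, against 4.10 to 4.28 at ZT6 and 4.05 to 4.25 (median 4.17) at ZT0 (limma adjusted p = 2.53e-11). Among the lactate and pyruvate genes Pdk4 had the widest range, 0.32, from 2.55 to 2.95 at ZT18 up to 2.88 to 3.44 (median 3.10) at ZT0 (limma adjusted p = 0.00489), with overlap between the 2 groups. Ppp1r3c had the widest range of the glycogen genes, 0.27, from 4.40 to 4.57 at ZT12 to 4.57 to 5.00 (median 4.77) at ZT0 (limma adjusted p = 0.0123). Of the glycolytic enzymes Hk2 had the widest range, 0.34, but its animals overlapped widely (1.22 to 1.73 at ZT12 and 1.59 to 2.11 at ZT3) and it was not called (limma adjusted p = 0.115). Pfkp, with a range of 0.21, was called (limma adjusted p = 5.38e-08), at 7.80 to 7.96 (median 7.89) at ZT0 and 7.62 to 7.72 at ZT12.

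**Figure D4:**
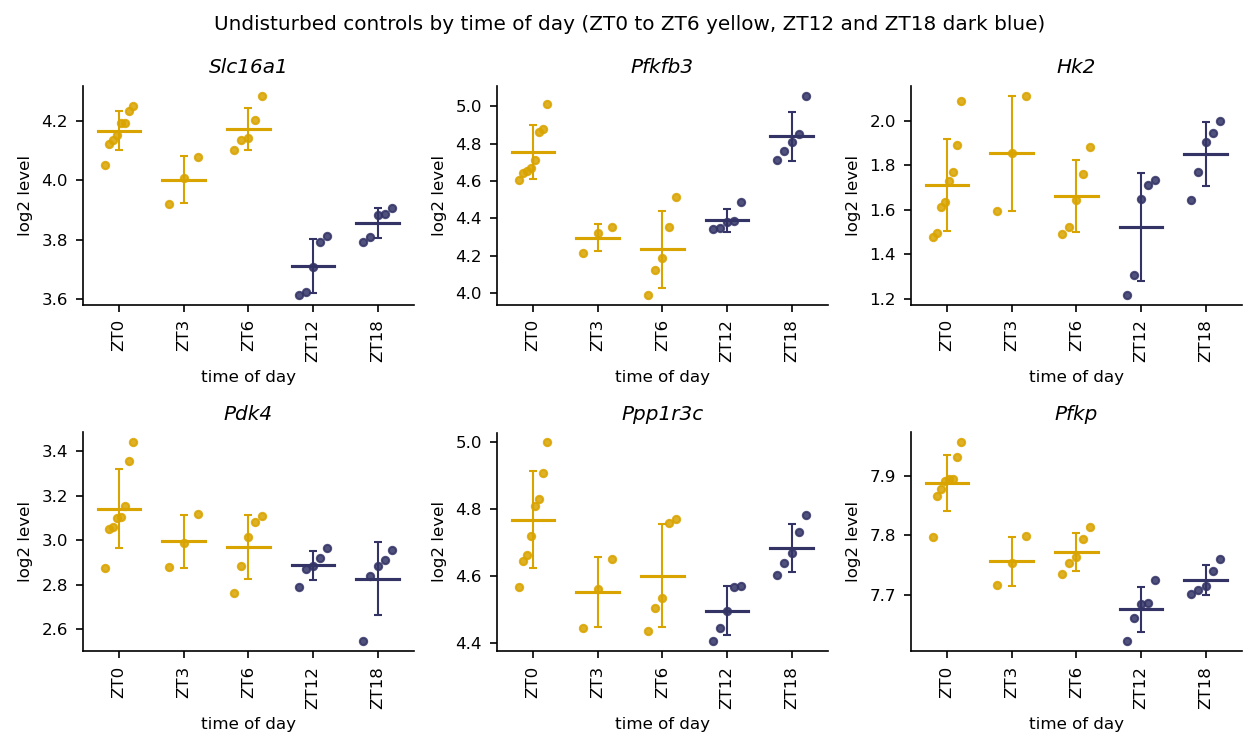
RNA level of 6 members in each undisturbed animal (points) with mean and SD, by time of day, in log2 units. Slc16a1 and Pfkfb3 separate day from night in opposite ways at ZT6 and ZT18, and Hk2 shows the spread that left it uncalled.

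Mice are mostly awake at ZT18 and mostly asleep at ZT6, and the controls of these times were compared by the same rule. Of 35 members, 5 were higher at ZT18 (14.3%, beside 15.4% of all genes) and 1 was lower (2.86%, beside 14.3%). Those higher were Pfkfb3 (0.60, SE 0.08, limma adjusted p = 9.65e-08), Pdk2 (0.19, SE 0.04), Slc2a3 (0.15, SE 0.04), Gys1 (0.15, SE 0.06) and Gpi1 (0.11, SE 0.04). Animals of both groups overlapped for Pdk2, Gys1 and Gpi1, and the lower one was Slc16a1 (-0.32, SE 0.05, limma adjusted p = 3.41e-06). At ZT18, 3 of 8 oligodendrocyte markers were lower as well, Opalin (-0.81), Mog (-0.43) and Cnp (-0.29). Of 8 endothelial and mural markers, 1 was lower (Slco1a4, -0.21) and 1 higher (Flt1, 0.17). Excitatory neuron markers had 3 of 7 higher, precursor markers 3 of 5, astrocyte markers 1 of 10 and microglia markers 1 of 7. The part of these shifts in the members' changes was not tested. The Gpi1 call was lost without T18N3 (limma adjusted p = 0.115) or T6N4 (0.105), and the Gys1 call, at an adjusted p of 0.0489, without any 1 of 8 libraries (T18N2, T18N3, T18N4, T18N7, T6N2, T6N3, T6N4 and J76N2, up to 0.135) and with centred libraries (0.0581). This comparison and T30 share the ZT6 controls, so their values are given side by side only. Pfkfb3 changed by 0.60 here and by 0.83 at T30, Slc2a3 by 0.15 and 0.13, Slc16a1 by -0.32 and -0.20. Pdk2 changed by 0.19 here and by -0.15 at T30, Ppp1r3c by 0.08 (not called) and 0.35, and Ldha by 0.10 (not called) and 0.22.

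After T36 few members stood apart from their controls. At T42, 12 h after the end of deprivation, 0 of 35 were called, beside 0.614% of all genes higher and 0.433% lower. At T48 only Pdk4 was called (lower, 2.86% of members), beside 0.571% of genes higher and 0.701% lower. At T54, T60 and T72, 0 members were called, beside 0.00722% of genes at each time. At T66 the figures were 0 members and 0.0795% of genes, at T78 and T192 0 members and 0% of genes, and at T198 0 members and 0.00722% of genes. The members with an unadjusted p under 0.05 in limma numbered 5 at T42 (12.4% of all genes), 9 at T54 (11.3%), 9 at T60 (9.65%) and 4 at T66 (10.4%). They numbered 2 at T72 (7.81% of all genes), 3 at T78 (6.05%), 6 at T192 (7.51%) and 2 at T198 (9.71%). Without the library T54S4, 2 members were called at T54, Gpi1 (log2 change 0.16, limma adjusted p = 0.0354) and Aldoa (0.22, 0.032).

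Effects at neighbouring times were also compared with each other. Between T27 and T30 the effect of 0 members differed, beside 0.00722% of all genes. Between T30 and T36, 2 members had a lower effect at T36, Pfkfb3 and Slc2a3 (5.71%, beside 5.75% of all genes), and 0 had a higher one (5.61% of all genes). Between T36 and T42, 0 members differed, beside 1.22% of genes higher and 2.08% lower. In limma, 3 members had an unadjusted p under 0.05 for the step from T27 to T30 (7.89% of all genes), 4 for that from T30 to T36 (24.4%) and 4 for that from T36 to T42 (17.2%). Without the library T36S1 the lower effect of Ppp1r3c at T36 than at T30 was also called (log2 difference -0.45, limma adjusted p = 0.00907).

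The wider pathway was read from a further list of 61 genes of carbohydrate metabolism, of which 55 were measured. At T27, 4 of 55 were higher and 4 lower, at T30 5 were higher and 14 lower, and at T36 6 were higher and 5 lower. The background shares are those given above for the members. Pdp1, the phosphatase that switches pyruvate dehydrogenase back on, was among the 5 largest changes at all 3 times, at 0.65 (SE 0.11), 0.71 (SE 0.10) and 0.35 (SE 0.10). At T27 it was joined by Ppp1r3g, another glycogen-targeting subunit of protein phosphatase 1 (0.44, SE 0.12), by Slc2a1, the glucose transporter of endothelium and astrocytes (0.43, SE 0.08), and by lower ketohexokinase Khk (-0.32, SE 0.11) and Slc2a8 (-0.31, SE 0.08). At T30 Ppp1r3g reached 0.70 (SE 0.11) and glycerol phosphate dehydrogenase Gpd1 0.41 (SE 0.06), while muscle enolase Eno3 was lower by -0.58 (SE 0.14) and the lactate transporter Slc16a3 (MCT4) by -0.54 (SE 0.14). At T36 Eno3 (-0.52, SE 0.14) and the phosphorylase kinase subunit Phka2 (-0.37, SE 0.12) were lower, and Gpd1 (0.32, SE 0.06) and the malin gene Nhlrc1 (0.26, SE 0.07) were higher. From T42 on, 1 of 55 was called at T42, 1 at T48 and 0 at each later time.

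Open chromatin at the members' start sites showed no call. ATAC signal is given as deposited, normalised for depth, over 130727 peaks in 59 libraries, with 3 libraries in each of T27, T30, T36, T42 and ZT3, 5 at ZT6 and ZT12, 4 at ZT18 and 8 at ZT0. Within 1 kb of the 49 start sites lay 43 peaks, 32 of them covering a start site, and each of the 33 members with a promoter entry had at least 1. Of the 43, 0 were called by limma at T27 (0.689% of all peaks), 0 at T30 (2.6%), 0 at T36 (0.618%), 0 at T42 (0%) and 0 over time of day in controls (1.39%). At an unadjusted p under 0.05 there were 2, 3, 1, 0 and 10, beside 11.1%, 15.1%, 12.3%, 4.23% and 14.6% of all peaks. The median log2 change of the 43 was -0.12 at T27 and -0.08 at T30, beside -0.01 and -0.02 over all peaks. Their median absolute change was 0.13 at both times, beside 0.21 and 0.22 over all peaks. The start-site peaks and all peaks were not matched for signal level in this comparison. For Ppp1r3c the start-site peak had a mean signal of 17.0 ± 1.52 (SD, n = 3) at T27 and 18.9 ± 1.65 (SD, n = 3) at ZT3, with a log2 change of -0.15 (SE 0.17).

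The search was then widened to all 289 peaks within the 35 gene spans and 20 kb on either side, a choice made after the start-site peaks had been seen. Of these, 2 were called at T27 (0.692%), 4 at T30 (1.38%), 2 at T36 (0.692%) and 0 at T42, shares near or below those of all peaks. A peak inside Pfkfb3, at chr2:11529914-11530763 in mm10 coordinates and 23.6 kb from the nearest annotated start, was called at both T27 and T30. Its signal was 18.9, 25.0 and 26.1 in the T27 libraries against 11.4, 11.5 and 15.7 at ZT3. At T30 it was 18.5, 20.4 and 26.1 against 10.7, 12.5, 13.0, 13.9 and 14.3 at ZT6. All deprived libraries lay above all controls, with a rise of 1.78-fold at T27 (log2 change 0.84, SE 0.19, limma adjusted p = 0.0112) and 1.62-fold at T30 (log2 change 0.69, SE 0.17, limma adjusted p = 0.00995). At T36 the signal was 15.4, 16.4 and 17.0, within the ZT12 range of 12.8 to 17.7. Peaks were not tested at T48 and T72. The signal was 20.3, 21.0 and 26.7 at T48 and 13.4, 19.5 and 23.1 at T72, against 15.4 to 24.5 in the ZT0 controls. The T27 call was lost without T3N3, T3N4, T27S3 or T27S5 (limma adjusted p up to 0.118) and the T30 call without T6N4 or T30S1 (up to 0.158). The peak over the upstream start of Pfkfb3 was not called, with a log2 change of -0.02 (SE 0.16) at T27 and 0.08 (SE 0.15) at T30. The peak over the downstream start, whose window is printed above, was not called either. Its signal was 34.6, 37.9 and 44.6 at T27 against 38.1, 43.3 and 44.4 at ZT3. At T30 it was 33.8, 37.4 and 44.6 against 38.8 to 46.8 at ZT6.

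**Figure D5:**
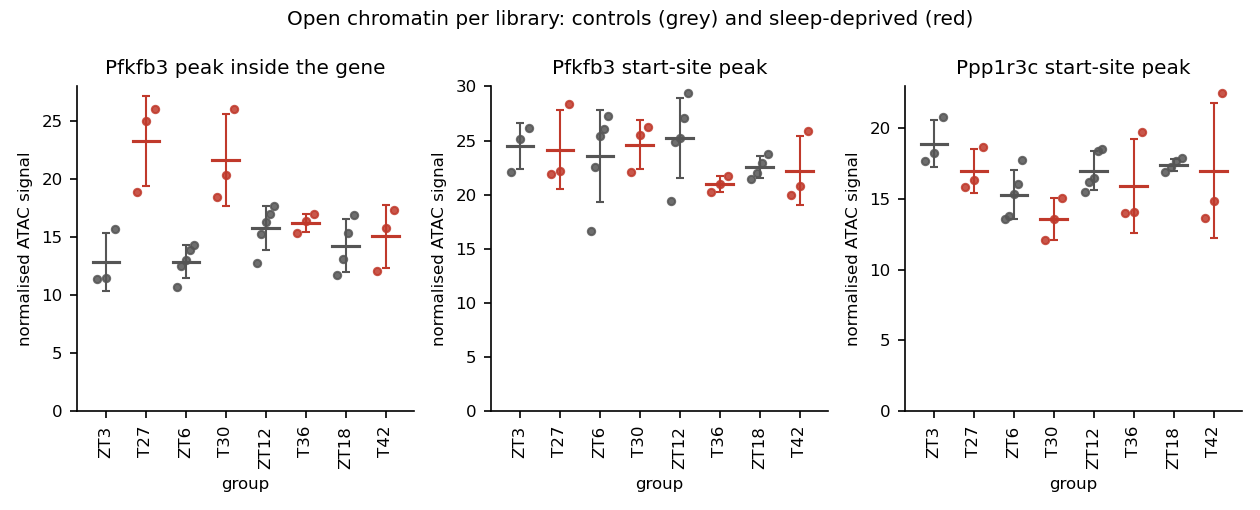
Normalised ATAC signal per library (points) with mean and SD for 3 peaks, in controls (grey) and deprived animals (red) of T27, T30, T36 and T42, with axes from 0. The peak inside Pfkfb3 is at 18.5 to 26.1 at T27 and T30 and at 10.7 to 15.7 in their controls. The peaks at the upstream start of Pfkfb3 and at the start of Ppp1r3c were called at none of the 4 times.

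A peak inside Pfkfb2, at chr1:130726309-130727034, rose at T30, with 9.39, 15.4 and 15.5 against 4.90 to 8.04 at ZT6 (log2 change 0.96, SE 0.20, limma adjusted p = 0.00163), and this call held without each library, whereas the messenger RNA of Pfkfb2 was not called there. A peak inside Slc16a7, at chr10:125297906-125298518, rose at T30 (log2 change 0.75, SE 0.20, limma adjusted p = 0.0218). A peak 5.1 kb from the nearest start of Pdk1, at chr2:71867897-71868403, was higher at T27 (log2 change 1.04, SE 0.23, limma adjusted p = 0.0111) and at T36 (0.92, SE 0.21, limma adjusted p = 0.0202). It was not called at T30, with 4.83, 5.51 and 9.22 against 5.07 to 10.8 at ZT6. At T27 its signal was 7.41, 7.92 and 9.12, inside that ZT6 range, against 3.00, 4.06 and 4.16 at ZT3. Lower peaks stood 15.7 kb from Pgam1 at T30 (log2 change -0.60, SE 0.17, limma adjusted p = 0.0303) and 17.7 kb from Pfkp at T36 (-0.54, SE 0.14, limma adjusted p = 0.0404). Each of these calls apart from that of Pfkfb2 was lost without at least 1 library: Slc16a7 without T6N2, T6N3, T30S1 or T30S4, Pdk1 at T27 without T3N3, T27S3 or T27S5 and at T36 without T12N1, T12N4, T36S1 or T36S2, Pgam1 without T6N2, T6N3, T6N4, T30S1 or T30S4, and Pfkp without T12N1, T12N2, T12N4, T36S1, T36S2 or T36S4. The highest adjusted p in limma without 1 library was 0.163 for Slc16a7, 0.116 and 0.136 for Pdk1, 0.303 for Pgam1 and 0.345 for Pfkp. The Pgam1 call was also lost with no batch term (limma adjusted p = 0.0867). Other genes lie near these peaks, and which gene a peak belongs to was not tested.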

How the data were processed

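RNA-seq and ATAC-seq were made from cortex of the same mice. RNA libraries were stranded and poly(A)-selected, at a depth of over 36000000 mappable reads with a median of 55000000 (ATAC over 25000000, median 41000000), per the labels' protocols. The authors deposited RNA as log2 values of 13842 genes, and ATAC as normalised signal of 130727 peaks. The submitters' processing notes name kallisto 0.43.0, sleuth 0.29.0, Bowtie2, bedtools 2.26.0, MACS2 2.1.1 and HTSeq 0.6.1, and builds GRCm38 and mm10, with no settings. The log2 values show batch adjusted by the authors before deposit: 48 values lie at exactly -1 in batch 1, and 23 below -1 in batch 2. The first RNA column merges both libraries of 1 ZT0 animal, and for ATAC a second library made from 1 of the ZT0 controls was not used. ATAC values, as multiples of a library's smallest step, would correspond to 2205740 to 11912300 reads in peaks, with a median of 4094970. These totals are estimates, since a stricter check did not recover whole reads in some libraries, and no count test was run.

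One linear model per assay (limma 3.58.1, R 4.3.3) held a mean per group and a batch term, with an intensity trend and 44 (RNA) or 41 (ATAC) residual degrees of freedom. ATAC signal entered as log2 of the value plus 0.5. Tests were two-sided, adjusted over all genes or peaks, and called below 0.05. Differences between effects were tested as contrasts of contrasts, and time of day by F-tests. The fits were tested on simulated data. Nothing says whether animals were housed or handled together, so p-values measure the spread between these animals. The members and lists were chosen with earlier results of these data known. All 35 members are named. Values per animal are given for members called with a log2 change above 0.3 and for the widest time-of-day range in each role, plus other called members, chosen after their values were seen. Of the other pathway genes, at most 5 called with the largest change are named at each of T27, T30 and T36. Marker lists were of astrocytes, excitatory and inhibitory neurons, oligodendrocytes and their precursors, microglia, endothelial and mural cells, choroid plexus with meninges and blood, and skeletal muscle. Alternatives were no batch term, a replicate block on the animal number, a filter at the 25th percentile of mean level, no trend, centring of libraries, another offset, controls of the same batch, a fit of only the groups compared, and leaving out each library.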

Additional observations from a re-analysis of the deposited data

Results flagged for a closer look

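In 140 combinations of a member and a control group of 4 to 10 animals, 6 had an animal whose gap to its nearest neighbour was large for the range of the group, a mark that chance gives in about 1 in 20. The ZT18 library T18N3 held 3 of them: Pkm at 9.71 (nearest neighbour 9.55), Pfkm at 8.19 (8.11) and Pdk4 at 2.55 (2.84). The ZT6 library T6N4 held 2, Gpi1 at 8.57 (8.68) and Pdk3 at 4.88 (4.66). In the ZT12 library T12N5, Pdk3 stood at 4.87 (4.67).

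The deprivation effect at T36 differed from that at T30 in 2 members by a test of the difference itself, Pfkfb3 by -0.95 and Slc2a3 by -0.23 on the log2 scale. T36 and T30 have separate controls, of ZT12 and ZT6.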

How the results depend on the processing

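No called result changed its sign in any alternative or without any library. Of the 20 deprivation calls of members, 8 were kept in all alternatives and without each library: Pfkfb3 and Ppp1r3c at T27 and T30, Slc2a3 at T27, Ldha at T30 and T36, and Pdha1 at T30. The count of members called ran over the alternatives from 4 to 6 at T27 (6 as reported), 6 to 10 at T30 (10), 2 to 4 at T36 (3), 5 to 8 between ZT18 and ZT6 (6), 8 to 13 for time of day (12) and 11 to 14 for the F-test over all times (13). The 6 at T30 came from the fit of the 2 groups alone, and at T48 the count was 0 in that fit, with the percentile filter and with controls of the same batch. The percentile filter removed Pdk4 and Hk2 themselves. Their calls were therefore not retested with it, and its counts are of the members left. The 8 for time of day came from batch 1 controls alone. The animal numbers do not pair the animals (over 330 same-numbered pairs the residuals correlated at a median of -0.0014, from -0.298 to 0.36), and the fit with the replicate block gave 5 members at T27, 10 at T30, 4 at T36, 1 at T48, 8 between ZT18 and ZT6, 10 for time of day and 11 for any time. In that fit the calls of Ldha at T27 (adjusted p = 0.0775), of Pfkm (0.119) and Pfkfb2 (0.0613) over time of day, of Hk1 (0.0506) and Hk2 (0.0899) over all times and of the Pfkp peak at T36 (0.06) were not made, while Pfkl at T36 (0.0418) and Pdha1 (0.0279) and Gbe1 (0.0169) between ZT18 and ZT6 were. With 1 library left out the counts were 4 to 5 at T27, 7 to 10 at T30, 2 to 3 at T36, 0 to 1 at T48, 0 to 2 at T54, 4 to 8 between ZT18 and ZT6, 1 to 3 between T36 and T30, 9 to 14 for time of day and 10 to 16 for any time.

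Peaks called near start sites numbered 1 at T27 and 1 at T36 within 5 kb in place of 0, and 2 at T27, 4 at T30 and 2 at T36 within the gene span and 20 kb. Without T3N3, 1 start-site peak was called at T27, at Pfkfb2, and without T18N4 1 varied with time of day, so leaving out 1 library gave 0 to 1. The causes of these shifts were not tested. At T27, with 3 animals a group, the smallest change of a member that was called was 0.14 on the log2 scale, for Pfkp. The larger change of Hk2 (-0.31) was not called there, so 0.14 is no limit of detection for all members. Depth per RNA library is not given by the deposited values.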
